A study of Caenorhabditis elegans with 12 samples.

Results

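Muscle of the nematode Caenorhabditis elegans is represented here by 38 genes that encode proteins of the sarcomere, the contractile unit, and of the complexes that anchor it to the cell membrane. The genes were named one by one for their roles in muscle, with earlier results of these data known, and all 38 were found among the 46904 gene IDs of the count files. They fall into 10 thick filament genes, 14 thin filament genes, 3 giant elastic or M-line genes, 10 attachment genes and unc-68, the ryanodine receptor that releases calcium from internal stores. By the Ensembl WBcel235 annotation they lie on all 6 chromosomes.

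RNA of whole day 1 adult worms was sequenced in 12 libraries, in triplicate for each genotype. These were wild type N2, daf-2(e1370) in strain CF1041, pfd-6(gk493446) in strain IJ462, and the pfd-6(gk493446); daf-2(e1370) double mutant in strain IJ485. The daf-2 gene encodes the insulin/IGF-1 receptor, whose reduced function extends lifespan, and pfd-6 encodes a subunit of prefoldin, a co-chaperone that hands newly made actin and tubulin to a folding chaperonin. The growth protocol names plates with control RNAi until the L4 larval stage, then plates with control or pfd-6 RNAi and FUdR, a drug that blocks production of progeny. The labels do not say which plates each library came from, so genotype is the only factor used here. The replicates are given as biological repeats, each mutant is 1 strain, and every library pools many worms and all their tissues. By the protocol 1 repeat was run later than the others, and which replicate number this was is not given.

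In a sarcomere, myosin heavy chains form the thick filaments and pull on thin filaments of actin, which troponin and tropomyosin open to myosin when calcium is released. In the body wall of C. elegans, thin filaments are anchored in dense bodies and thick filaments in M-lines, and both are attached through integrin to the basement membrane below the hypodermis. Body wall and pharynx use different heavy chains: unc-54 and myo-3 are the body wall forms, and myo-1 and myo-2 the pharyngeal forms. Because whole worms were measured, fewer muscle cells and less muscle RNA per cell cannot be told apart in any value below.

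The libraries held 19394046 to 41009125 counts, and levels are given as CPM, counts scaled by library size and by TMM, a correction for differences in RNA composition. The pfd-6 transcript was at 143, 86.9 and 102 CPM in N2 and at 158, 77.6 and 66.4 in daf-2. It was at 21.3, 11.4 and 9.0 CPM in pfd-6 and at 16.4, 14.4 and 16.9 in the double mutant, so every library carrying the pfd-6 allele was below every library without it. A pair of libraries stood apart from the rest. Ribosomal protein genes took 1.405% of all counts for daf-2 replicate 3 and 0.609% for replicate 3 of pfd-6, against 9.332% to 15.926% in the other 10 libraries. The same libraries had the lowest summed hypodermis and cuticle markers, at 382 and 285 CPM against 2334 or more elsewhere. Their part in the muscle results was not tested. Medians, counts of positive genes and calls without them are given for some comparisons. The log2 fold changes printed for single genes include them.

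The 38 muscle genes together made up 0.402% of all counts for daf-2 replicate 3, the lowest share, and 1.446% in double mutant replicate 3, the highest. In N2, levels per kilobase of annotated exon ran over a wide range, from the regulatory light chain mlc-2 at 965 CPM per kb and the troponin C gene pat-10 at 940 to the giant protein gene ttn-1 at 0.767. The N2 libraries of mlc-2, at 913 to 1044 CPM per kb, overlapped those of pat-10, at 889 to 1003, so the order of these neighbours is within their spread. The next in order were the troponin I gene unc-27 at 498, the calponin-like cpn-3 at 430 and the tropomyosin lev-11 at 316 CPM per kb. The main body wall heavy chain unc-54 stood at 229 and its partner myo-3 at 12.4 CPM per kb. The exon length joins all annotated isoforms, which lowers the value of genes with many isoforms, such as ttn-1 with 56044 exon bases and 15 transcripts.

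Replicates of one genotype differed widely in these genes. The highest library exceeded the lowest by a median of 1.77-fold in the double mutant, 2.04-fold in N2, 3.12-fold in daf-2 and 4.47-fold in pfd-6. The spread was over 4-fold in 7, 7, 14 and 21 of the 38 genes in that order. The widest was the light chain mlc-2 in pfd-6, at 25.2-fold, and the narrowest the troponin I gene tni-1 in the double mutant, at 1.08-fold. Replicate 1 was the lowest library for 34 genes in N2 and for 35 in the double mutant. Over all 12 libraries, double mutant replicate 3 was the highest for 19 genes, and pfd-6 replicate 1 was the lowest for 16.

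The differences between replicates varied with transcript length. The muscle transcripts were long, with a median exon length of 2372 bases against 1356 over all genes tested. The log2 ratio of replicate 2 to replicate 1 correlated with exon length across the 38 genes, with Spearman's rho of 0.90 for pfd-6, 0.81 for daf-2, 0.75 for N2 and 0.56 for the double mutant. These are descriptions across genes that share the same libraries. In daf-2, the 19 longest genes were at a median log2 ratio of 1.14 in replicate 3 over replicate 1, and the 19 shortest at -1.28. The double mutant had corresponding medians of 1.40 and 0.43, and pfd-6 had 1.58 and -1.18. Of the 19 shortest genes, 14 had their lowest level in replicate 3 of daf-2, and 14 in replicate 3 of pfd-6, the libraries with few ribosomal protein counts. None had it in replicate 3 of the double mutant. Exceptions were tni-1, tnc-2 and unc-97, which were highest in replicate 3 of both single mutants, and tnt-4, highest in that of daf-2.

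**Figure D1:**
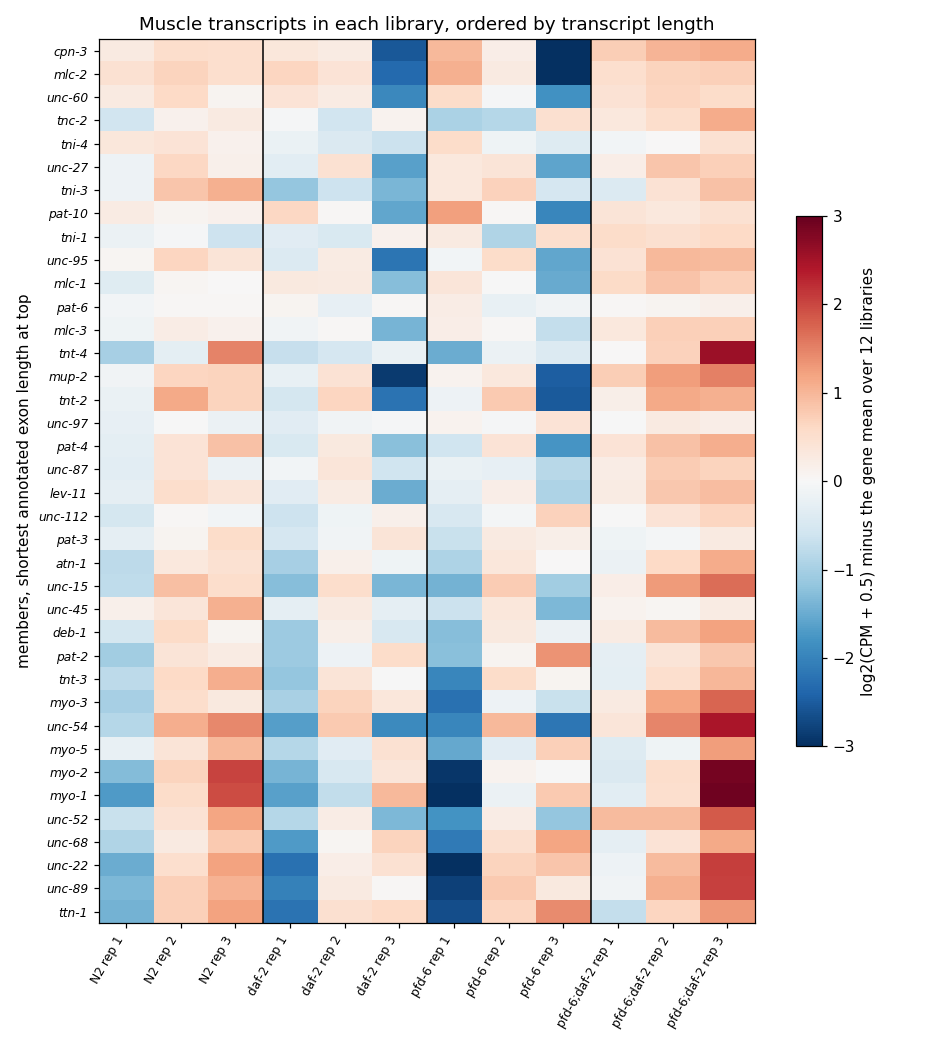
Level of each of the 38 muscle genes (rows, shortest exon length at the top) in each of the 12 libraries (columns), as log2(CPM + 0.5) minus the gene's mean over all libraries. Colours saturate at 3 in either direction. Most upper rows are low in replicate 3 of daf-2 and of pfd-6, most lower rows are low in replicate 1 of N2, daf-2 and pfd-6, and double mutant replicate 3 is high in most rows.

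The effect of the pfd-6 allele in the daf-2 background was measured by the double mutant against daf-2. All 38 muscle genes had a positive log2 fold change, from 0.06 for the integrin gene pat-3 to 2.23 for the troponin T gene tnt-4, with a median of 0.90, where the median over all 15090 genes tested was -0.07. With an offset for transcript length in each library, 34 were positive and pat-3, unc-45, unc-68 and ttn-1 were negative. The median of the 38 was then 0.70, against -0.20 over all genes. None of the 38 passed an adjusted p of 0.05 in edgeR's quasi-likelihood test, which called 3.11% of all genes. An unadjusted p under 0.05 was found for 5 of the 38 genes, against 15% of all genes. DESeq2 called 2 muscle genes higher, tni-3 and unc-52, where it called 4.85% of all genes higher. Of the 38, limma-voom called 0, against 3.28% of all genes in either direction. Fitted with the replicate number as a block, 4 genes rose in the double mutant over daf-2, namely deb-1, myo-3, unc-89 and atn-1, where 4.13% of all genes were called higher. With the length offset added to the block, deb-1 was the only muscle gene called.

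Replicate by replicate the picture was less even. The median muscle gene was at a log2 ratio of 0.74 in replicate 1, 0.55 in replicate 2 and 1.96 in replicate 3, with 35, 37 and 37 of 38 genes higher in the double mutant. In 33 genes the double mutant was higher in each of the 3 numbers, which held for 22.3% of all genes. The exceptions were pat-10, mlc-2, unc-45, pat-3 and pat-6. For 15 genes every double mutant library was above every daf-2 library, against 14.4% of all genes. Over replicates 1 and 2 alone all 38 genes stayed positive, with a median of 0.64. Without double mutant replicate 3 the median was 0.57, and 35 genes were positive.

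**Figure D2:**
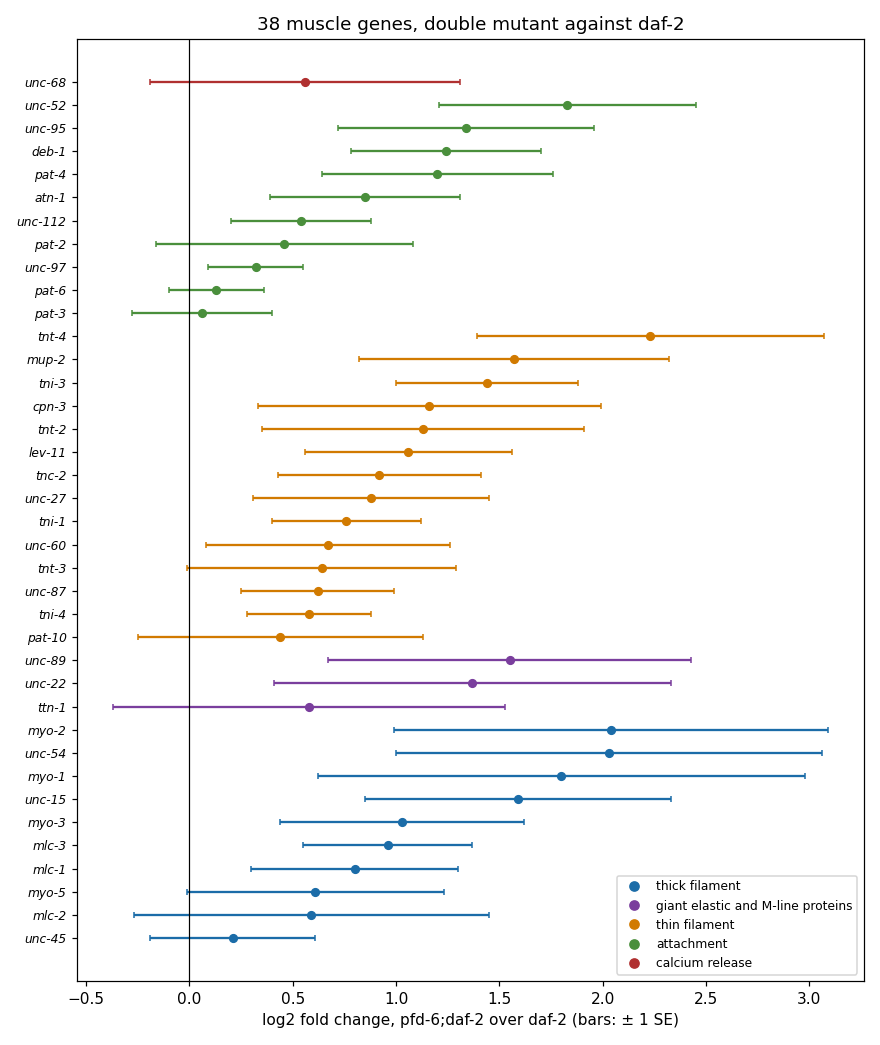
Log2 fold change of the double mutant over daf-2 (x axis) for each of the 38 muscle genes (y axis), from the edgeR fit over 3 libraries of each genotype, with bars of 1 standard error and colours by role. All points lie at or right of 0.06, and the bars of the longest genes and of the myosin heavy chains are among the wide ones.

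Thick filament genes had a median log2 fold change of 0.99 between the double mutant and daf-2. The body wall heavy chain unc-54 (WBGene00006789, chromosome I, 14855901 to 14863482, minus strand) was at 1008, 2186 and 4276 CPM in replicates 1, 2 and 3 of the double mutant, and at 249, 1365 and 211 in daf-2. In N2 it was at 435, 1683 and 2136 CPM, and in pfd-6 at 202, 1544 and 174. The groups overlapped, because daf-2 replicate 2 exceeded double mutant replicate 1. The log2 fold change was 2.03 (SE 1.03, adjusted p = 0.393).

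The second body wall heavy chain, myo-3 (WBGene00003515, chromosome V, 12226817 to 12234343, minus strand), which makes the centre of the thick filament, was steadier between replicates. It stood at 86.1, 164 and 239 CPM in the double mutant and at 36.3, 114 and 90.3 in daf-2. The N2 libraries, at 35.7, 103.19 and 87.7 CPM, were close to those of daf-2, and the pfd-6 libraries, at 14.7, 64.2 and 44.9, were below both in each replicate. Its log2 fold change of the double mutant over daf-2 was 1.03 (SE 0.59, adjusted p = 0.469). With the replicate number as a block myo-3 rose by 1.09 (SE 0.24, adjusted p = 0.0316). Block and length offset together gave 0.67 (SE 0.19, adjusted p = 0.0659).

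Paramyosin, the rod protein in the thick filament core encoded by unc-15, was at 598, 1257 and 1644 CPM in the double mutant. The daf-2 libraries were at 215, 752 and 199 CPM, N2 at 306, 965 and 752, and pfd-6 at 192, 876 and 250. The daf-2 and double mutant libraries overlapped, and the log2 fold change was 1.59 (SE 0.74, adjusted p = 0.337). The essential light chain gene mlc-3 had 469, 620 and 623 CPM in the double mutant and 349, 387 and 144 in daf-2, without overlap, for a log2 fold change of 0.96 (SE 0.41, adjusted p = 0.286). The regulatory light chains mlc-1 and mlc-2 are near-identical copies whose reads can be split between them, so their separate values are uncertain. The myosin chaperone gene unc-45 showed little difference, with 68.6, 65.8 and 75.2 CPM in the double mutant against 52.6, 76.3 and 52.8 in daf-2.

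The pharyngeal heavy chains were at lower levels than unc-54 and myo-3, per kilobase of exon in N2, and varied widely between replicates. The double mutant had 9.13, 18.4 and 94.9 CPM of myo-2, and daf-2 had 4.46, 8.91 and 16.2. In N2 myo-2 was at 4.79, 20.2 and 52.5 CPM and in pfd-6 at 1.22, 13.5 and 12.4. Replicate 3 was far above replicate 1 in each genotype, and the log2 fold change over daf-2 of 2.04 had an SE of 1.05 (adjusted p = 0.397). Without double mutant replicate 3 it was 0.40 for myo-2 and 0.14 for myo-1. The other pharyngeal heavy chain, myo-1, had a log2 fold change of 1.80 (SE 1.18, adjusted p = 0.536).

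Among the giant and M-line genes, unc-22 encodes twitchin, a kinase bound to the thick filament, and unc-89 encodes obscurin of the M-line. In unc-89 the double mutant stood at 78.2, 176 and 352 CPM and daf-2 at 20.4, 101 and 85.9. The N2 libraries of unc-89 were at 33.0, 138 and 175 CPM and those of pfd-6 at 11.7, 145 and 104. The double mutant was the highest genotype in each replicate, and the unblocked log2 fold change over daf-2 was 1.55 (SE 0.88, adjusted p = 0.459). With the block unc-89 rose by 1.66 (SE 0.38, adjusted p = 0.0343). With the block and the offset for transcript length it was at 0.70 (SE 0.21, adjusted p = 0.0698), past the threshold no longer.

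The twitchin gene unc-22 was at 117, 252 and 551 CPM in the double mutant, and daf-2 had 27, 150 and 179. N2 libraries were at 46.2, 183 and 298 CPM, and pfd-6 at 15.3, 205 and 231. Its log2 fold change over daf-2 was 1.37 (SE 0.96, adjusted p = 0.565). The titin-like gene ttn-1, the longest of the 38, was at 17.8, 46.7 and 74.1 CPM in the double mutant and 5.95, 41.3 and 45.3 in daf-2. In N2 it had 10.8, 49 and 69.2 CPM and in pfd-6 4.3, 46.3 and 79.6. All 4 genotypes thus overlapped for ttn-1, and its log2 fold change of 0.58 (SE 0.95) was within its error.

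Thin filament genes had a median log2 fold change of 0.90 over daf-2. Troponin I holds the thin filament off in the absence of calcium, and the 4 troponin I genes did not share one pattern. The gene tni-3 was at 11.1, 16.5 and 9.53 CPM in daf-2, below every library of the other genotypes. It had 19.1, 34.4 and 47.1 CPM in the double mutant, 22.9, 45.7 and 54.1 in N2, and 32.0, 41.8 and 18 in pfd-6. Against daf-2 the double mutant was higher without overlap, at a log2 fold change of 1.44 (SE 0.44, adjusted p = 0.118). DESeq2 gave 1.46 (SE 0.48, adjusted p = 0.0392).

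The gene tni-4 had 16.6, 14.1 and 12.05 CPM in daf-2 and 18.1, 19.4 and 26.5 in the double mutant, for a log2 fold change of 0.58 (SE 0.30, adjusted p = 0.41). The gene tni-1 was at 24.8, 23.5 and 25.3 CPM in the double mutant and 12.95, 12.11 and 18.4 in daf-2. The most abundant troponin I gene, unc-27, had 451, 705 and 643 CPM in the double mutant and 318, 536 and 126 in daf-2, where the groups overlapped. Both tni-3 and tni-4 overlap protein-coding genes on the opposite strand, and so do other muscle genes. The strand setting of the counting is not given in the sources used here, so reads of such partners may be mixed. The opposite-strand partners of unc-22 and pat-2 drew 45026 and 15579 counts, against 59801 and 17448 for the genes themselves. Those of tni-3 and tni-4 drew 848 and 26881, against 9620 and 6935.

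Troponin T ties troponin to tropomyosin. The gene tnt-4 had the highest fold change of the 38 at a low level, with 2.64, 4.52 and 17.8 CPM in the double mutant and 1.42, 1.68 and 2.18 in daf-2. N2 had 1.04, 2.03 and 8.15 CPM of tnt-4 and pfd-6 had 0.61, 2.23 and 1.81. The log2 fold change over daf-2 was 2.23 (SE 0.84, adjusted p = 0.218), with no overlap. The most abundant troponin T gene, tnt-2, stood at 326, 635 and 604 CPM in the double mutant and at 201, 451 and 61.3 in daf-2, with overlap (1.13, SE 0.78, adjusted p = 0.557). Another troponin T gene, mup-2, was at 205, 294 and 351 CPM in the double mutant and at 104.7, 165 and 16.4 in daf-2, for 1.57 (SE 0.75, adjusted p = 0.352).

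Tropomyosin, encoded by lev-11, stood at 751, 1119 and 1196 CPM in the double mutant and 498, 752 and 225 in daf-2, and daf-2 replicate 2 was barely above double mutant replicate 1. The body wall troponin C gene pat-10 was at 1072, 1028 and 1130 CPM in the double mutant and 1266, 841 and 279 in daf-2, so replicate 1 went the other way. The value of unc-60, which encodes cofilin, is uncertain because the gene overlaps F53E2.2 on the same strand, which drew 183031 counts against 17894.

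Attachment genes had a median log2 fold change of 0.69 over daf-2. They ranged from 0.06 for pat-3 to 1.83 for unc-52, with unc-112 at 0.54 and unc-95 at 1.34 in between. Perlecan, the basement membrane proteoglycan under the muscle encoded by unc-52 (WBGene00006787, chromosome II, 14647321 to 14684456, minus strand), was at 212, 212 and 391 CPM in the double mutant and at 59.6, 128 and 42.5 in daf-2. In N2 unc-52 had 68, 147 and 247 CPM and in pfd-6 31.1, 128 and 48.8. Every double mutant library exceeded every daf-2 and pfd-6 library. The log2 fold change over daf-2 was 1.83 (SE 0.62, adjusted p = 0.162), a 3.55-fold difference, and DESeq2 gave 1.85 (SE 0.62, adjusted p = 0.0475).

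Vinculin, a dense body protein encoded by deb-1 (WBGene00000942, chromosome IV, 7085215 to 7094266, minus strand), was at 87.3, 143 and 170 CPM in the double mutant and at 33.9, 83.0 and 52.7 in daf-2, without overlap. It was at 50.9, 109 and 78.1 CPM in N2 and 29.9, 89.5 and 65.3 in pfd-6. The log2 fold change over daf-2 was 1.24 (SE 0.46, adjusted p = 0.211), and with the block deb-1 rose by 1.3 (SE 0.23, adjusted p = 0.0141). The dense body alpha-actinin atn-1, at 95, 163 and 231 CPM against 53.6, 119.32 and 98.4, rose with the block by 0.85 (SE 0.21, adjusted p = 0.0475). With block and length offset, atn-1 was at 0.62 (adjusted p = 0.0911), while deb-1, at 1.02 (adjusted p = 0.0169), still passed. The integrin-linked kinase gene pat-4 had 17.7, 24.6 and 28.6 CPM in the double mutant and 9.37, 16.3 and 5.24 in daf-2, a 2.29-fold difference (adjusted p = 0.34).

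The integrin chains themselves differed little. The beta chain pat-3 was at 116, 122 and 155 CPM in the double mutant, and at 90.5, 118 and 167 in daf-2. N2 had 106, 136 and 187 CPM, and pfd-6 had 80.7, 154 and 144. All 4 genotypes overlapped, and the log2 fold change over daf-2 was 0.06 (SE 0.34). The alpha chain pat-2 was at 0.46 (SE 0.62), and the actopaxin pat-6 at 0.13 (SE 0.23), with all 12 pat-6 libraries between 25.1 and 35.3 CPM. The PINCH homologue unc-97 was at 0.32 (SE 0.23). The ryanodine receptor unc-68 had 41.4, 66.8 and 110 CPM in the double mutant, and 15.1, 52.4 and 79.9 in daf-2. It had 26.7, 61.0 and 86.6 CPM in N2 and 11.2, 70 and 114 in pfd-6, with overlap throughout.

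**Figure D3:**
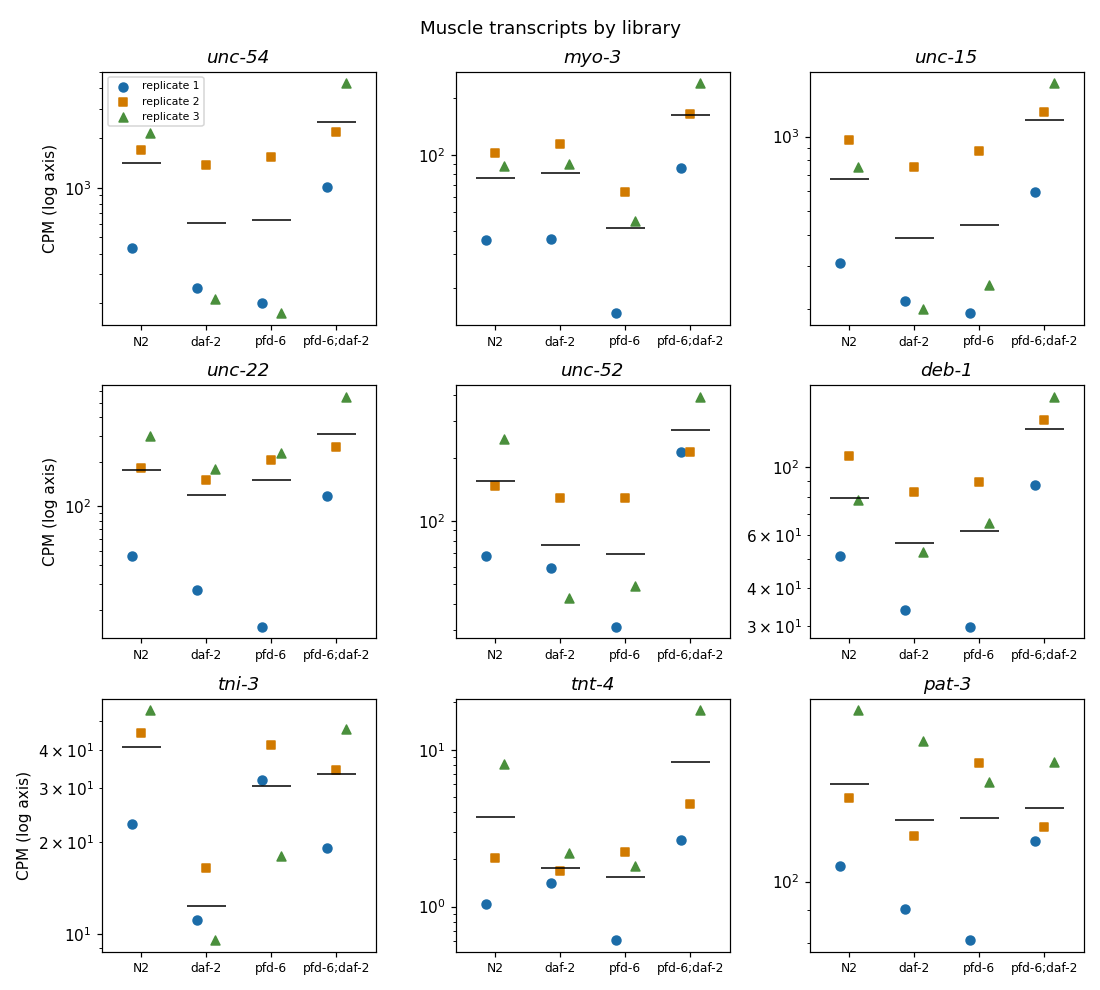
CPM on log axes for 9 of the muscle genes by genotype, with 1 symbol per replicate number and a line at the mean of 3 libraries. Replicate 1 is the lowest in unc-22 and myo-3 in each genotype, tni-3 is lowest in daf-2, and the pat-3 libraries of the 4 genotypes overlap.

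The single mutants were compared with N2 to ask what each allele did alone. In daf-2, 34 of 38 genes had a negative log2 fold change, with a median of -0.54 against 0.03 over all genes, and none passed edgeR's test, which called 0.934% of all genes. With an unadjusted p under 0.05 there were 2, tni-3 and tni-4, against 10.1% of all genes, and these were also the genes whose daf-2 libraries were all below N2, a pattern seen in 7.66% of all genes. The log2 fold change was -1.72 for tni-3 (SE 0.45, adjusted p = 0.11) and -0.73 for tni-4 (SE 0.30, adjusted p = 0.427). DESeq2 called tni-3 lower (-1.75, SE 0.48, adjusted p = 0.0129), as it did 0.782% of all genes. Of the 38, limma-voom called 0, against 0.934% of all genes in either direction. In 22 genes daf-2 was lower in each of the 3 numbers, against 23.9% of all genes. After tni-3 the lowest fold changes were myo-2 at -1.38 (SE 1.03) and unc-54 at -1.22 (SE 1.01). The highest were myo-3 at 0.08 (SE 0.59), tni-1 at 0.06 (SE 0.36) and the attachment gene unc-112 at 0.01 (SE 0.34). The median by number was -0.17, -0.26 and -1.19, and over replicates 1 and 2 alone the fitted median was -0.19. Without N2 replicate 3 it was -0.33, and without daf-2 replicate 3 it was -0.42.

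In pfd-6, 31 of 38 genes had a negative log2 fold change over N2, with a median of -0.39 against 0.04 over all genes. None passed edgeR's test, which called 0.0994% of all genes, and 1 reached an unadjusted p under 0.05, against 6.93% of all genes. That gene was unc-45, at 40.2, 80.8 and 24.5 CPM in pfd-6 and 70.4, 81.6 and 133 in N2 (-0.97, SE 0.40, adjusted p = 0.614). Neither DESeq2 nor limma-voom called any (0 of 38), against 0.205% and 0.113% of all genes in either direction. The lowest values were those of myo-2 (-1.51, SE 1.03), tnt-4 (-1.25, SE 0.83) and unc-52 (-1.15, SE 0.61). The highest were pat-2 at 0.43 (SE 0.62), tni-1 at 0.34 (SE 0.36) and unc-97 at 0.32. No muscle gene had pfd-6 and N2 libraries that did not overlap, where 4.71% of all genes were higher and 2.75% lower without overlap. Without pfd-6 replicate 3 the median was -0.27, with 9 genes positive and 10 changed in sign from the fit over all libraries. Without N2 replicate 3 it was -0.21.

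The double mutant was also set against pfd-6, which gives the difference daf-2 made in the pfd-6 background, and against N2. These comparisons share the double mutant libraries with each other and with the comparison to daf-2. Over pfd-6, 36 genes were positive, with a median of 0.79 against -0.02 over all genes. With the length offset 29 were positive, with a median of 0.54 against -0.24 over all genes. In the fit with no offset, leaving out double mutant replicate 3 gave a median of 0.45 and 27 positive genes. Leaving out replicate 3 of both single mutants gave a median of 0.79 and 34 positive genes, with 6 changed in sign. None of the 38 passed edgeR's test, which called 3.29% of all genes, and 7 had an unadjusted p under 0.05, against 20.4% of all genes. DESeq2 called 3 higher, myo-3, tnt-4 and unc-52, against 5.28% of all genes. Of the 38, limma-voom called 0, against 4.07% of all genes in either direction. The lowest adjusted p in edgeR was that of myo-3 (1.98, SE 0.61, adjusted p = 0.0982), and unc-52 followed (1.97, SE 0.62, adjusted p = 0.104). Above myo-3 in fold change were tnt-4 at 2.42 (SE 0.84) and myo-2 at 2.18 (SE 1.05). The lowest fold changes were pat-2 at -0.05 (SE 0.61), unc-97 at -0.01 (SE 0.23) and pat-3 at 0.05 (SE 0.34). For 9 genes, myo-3, tnt-4 and unc-52 among them, every double mutant library was above every pfd-6 library, against 14.6% of all genes.

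Over N2, 32 genes were positive in the double mutant, with a median of 0.47 against -0.07 over all genes. With the length offset 28 were positive, with a median of 0.29 against -0.23 over all genes. In the fit with no offset, leaving out double mutant replicate 3 gave a median of 0.06 and 22 positive genes. None of the 38 passed edgeR's test, which called 3.19% of all genes, and 1 reached an unadjusted p under 0.05, against 15.3% of all genes. That gene was tni-1, at 24.8, 23.5 and 25.3 CPM against 14.6, 16.3 and 10.6 in N2 (0.82, SE 0.36, adjusted p = 0.292). Neither DESeq2 nor limma-voom called any (0 of 38), against 7.81% and 4.24% of all genes in either direction. With the block 1 gene rose, myo-3, by 1.16 (SE 0.24, adjusted p = 0.0235), where 5.29% of all genes were called higher. The highest unblocked values were tnt-4 at 1.17 (SE 0.81), myo-3 at 1.11 (SE 0.60) and tni-1, and the lowest were unc-45 at -0.44 (SE 0.40), tni-3 at -0.29 (SE 0.43) and tni-4 at -0.15 (SE 0.30). In 8 genes the double mutant and N2 libraries did not overlap, with the double mutant higher, against 18.6% of all genes.

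Whether the pfd-6 allele acted differently in the daf-2 and N2 backgrounds was tested as an interaction over all 12 libraries. The interaction was 0.00 for unc-97 and positive for the other 37 genes, up to 3.56 for myo-2, with a median of 1.20 against -0.12 over all genes. With the length offset 32 were positive, with a median of 1.05 against -0.28 over all genes. With no offset, leaving out replicate 3 of both single mutants gave a median of 1.24 and 36 positive genes. Replicates 1 and 2 alone gave a median of 0.86 and 36 positive genes. None passed edgeR's test, which called 0.139% of all genes, while 10 of the 38 had an unadjusted p under 0.05, against 17.4% of all genes. DESeq2 called 1 positive, unc-52, against 2.05% of all genes. Of the 38, limma-voom called 0, against 0.139% of all genes in either direction. The interaction of unc-52 was 2.98 (SE 0.86, adjusted p = 0.175) in edgeR and 3.02 (SE 0.88, adjusted p = 0.0263) in DESeq2. Larger but with wider errors were tnt-4 at 3.48 (SE 1.17, adjusted p = 0.211) and unc-54 at 3.18 (SE 1.44, adjusted p = 0.285), and the value of 3.56 for myo-2 had an SE of 1.47 (adjusted p = 0.263). Thick filament genes had a median interaction of 1.54, thin filament genes 1.24 and attachment genes 0.64, with pat-2 at 0.02 and pat-6 at 0.14 next to unc-97 at the low end.

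**Figure D4:**
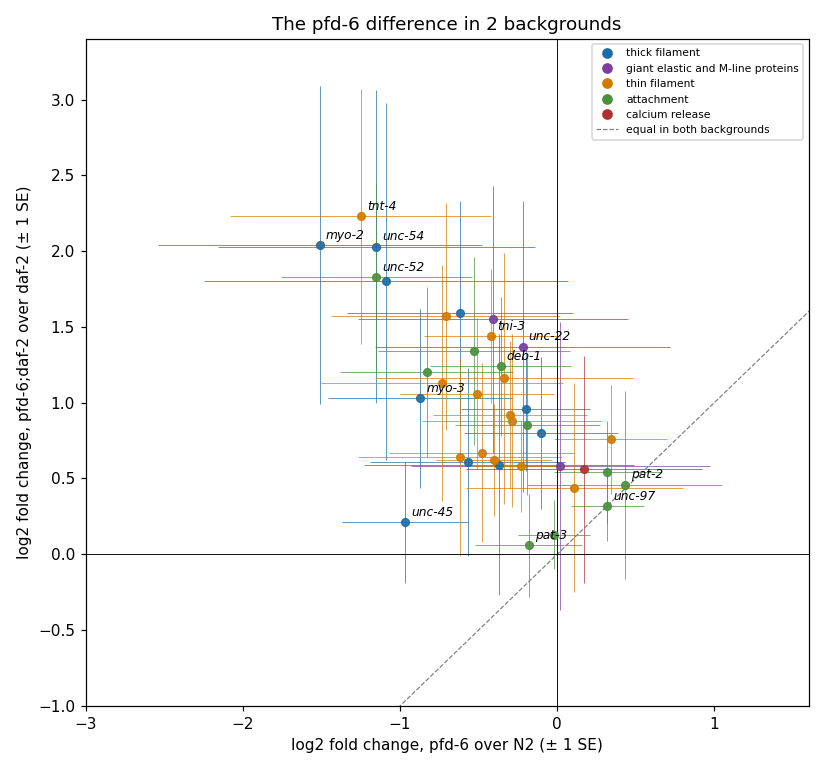
Log2 fold change of pfd-6 over N2 (x axis) and of the double mutant over daf-2 (y axis) for the 38 muscle genes, coloured by role, with bars of 1 standard error and a dashed line where both would be equal. The groups on the 2 axes share no libraries, the points lie on or above the dashed line, and the bars are wide for genes with variable replicates.

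The balance between heavy chains was read within libraries, per kilobase of exon. Of unc-54 and myo-3 together, myo-3 made up 7.7%, 5.87% and 4.01% in N2 and 7.98%, 7.07% and 5.38% in the double mutant. It made up 12.9%, 7.8% and 30.3% in daf-2 and 6.86%, 4.05% and 20.7% in pfd-6. In replicate 1 of daf-2 and of pfd-6, unc-54 was at 249 and 202 CPM and myo-3 at 36.3 and 14.7. The high shares came from replicate 3 of daf-2 and of pfd-6. There unc-54 was similarly low, at 211 and 174 CPM, while myo-3, at 90.3 and 44.9, was near its level in N2 or moderately below it. The pharyngeal forms myo-1 and myo-2 took 11.5% and 12.9% of the 4 heavy chains in the same libraries and 0.945% to 4.23% in the other 10. Both shares were thus highest in the libraries with few ribosomal protein counts. The other 10 libraries had myo-3 shares of 4.01% to 12.9%.

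**Figure D5:**
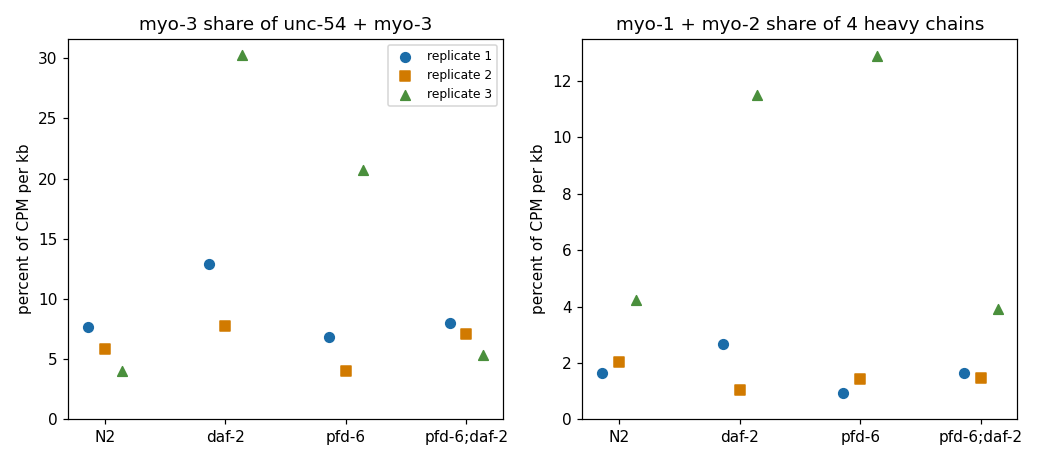
Share of myo-3 in the sum of unc-54 and myo-3 (left) and of myo-1 plus myo-2 in the sum of 4 myosin heavy chains (right), in percent of CPM per kb, by genotype and replicate number. Replicate 3 of daf-2 and of pfd-6 stands above the other 10 libraries in both panels.

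Other genes of muscle were counted in 5 further lists. Of 42 more sarcomere and attachment genes, 31 were positive in the double mutant over daf-2 (median 0.37) and none passed edgeR's test in any comparison. The hemidesmosome and intermediate filament list, whose proteins carry muscle tension through the hypodermis to the cuticle, had 14 of 16 genes positive (median 0.74) and none called. The 22 genes of the basement membrane and dystrophin complex had a median of 0.43 and the 17 regulators and myosin chaperones one of 0.14, again with none called in any comparison. Among 31 genes of excitation and calcium handling none was called over daf-2, where the median was 0.35, and a pair of genes passed in other comparisons. The sodium-calcium exchanger ncx-1 rose in the double mutant over pfd-6, from 10.1 ± 5.71 to 46.4 ± 7.41 CPM (SD, n = 3 each), by 2.20 on the log2 scale (SE 0.50, edgeR adjusted p = 0.0366). The acetylcholine receptor subunit unc-38 was at 12.5, 10.4 and 73.3 CPM in daf-2 and at 1.35, 2.26 and 1.17 in N2, with daf-2 replicate 3 far above the other daf-2 libraries. It rose in daf-2 over N2 by 4.31 (SE 0.74, edgeR adjusted p = 0.0176) and in the double mutant over pfd-6 by 2.90 and over N2 by 3.64.

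Markers of other tissues were summed in the same libraries. Summed over 10 genes, hypodermis and cuticle markers were at 6492, 6423 and 7444 CPM in the double mutant, above every other library, where N2 had at most 4463, daf-2 3133 and pfd-6 2652. Summed over 12 genes, sperm markers were at 106, 83.7 and 234 CPM in the double mutant and at most 38.6 elsewhere. The 10 intestinal markers were at 3214, 3449 and 3719 CPM in the double mutant and at 2210, 2891 and 1011 in daf-2. N2 was higher, at 3540, 5108 and 4750 CPM, and pfd-6 was at 2213, 3896 and 899. The 12 neuronal markers were at 282, 341 and 371 CPM in the double mutant and 202 to 369 elsewhere. The 12 germline markers ran from 4394 to 12808 CPM with the genotypes overlapping. No list was at 0 and only 1 of the 10 embryonic markers, in N2, was at 0 in a genotype. The body wall markers, all detected, were highest in double mutant replicate 3 at 7807 CPM and lowest in pfd-6 replicate 3 at 691. Most of these body wall markers are themselves among the muscle genes described above, so their sum largely repeats those values. The part of these tissues in the muscle differences was not tested.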

How the data were processed

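Paired-end mRNA reads of whole worms were processed by the authors into expected counts per gene, the deposited unit, 1 file per library. As tools, per the submitters' processing notes, R 3.1.3 with limma 3.24.15, RSEM 1.3.1, StringTie 1.3.3 and HISAT2 2.0.5 were used in roles not given, and WBcel235 and ce11 are listed as builds. Gene IDs were matched to symbols and Ensembl WBcel235 coordinates.

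Here the estimated counts were rounded, genes with low counts were removed with filterByExpr (15090 of 46904 IDs kept, all 38 muscle genes among them), and edgeR 4.0.16 in R 4.3.3 was fitted with TMM scaling to all 12 libraries, with 1 mean per genotype and quasi-likelihood tests, which share 1 estimate of spread. P-values were adjusted by Benjamini-Hochberg over all 15090 genes within each comparison, and calls use 0.05. DESeq2 1.42.0 and limma-voom (limma 3.58.1) were alternatives.

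Replicate numbers were taken to pair samples where the deviations of all 3 pairs correlated above 0.1. This held for daf-2 against N2 (0.453, 0.271 and 0.31), the double mutant against daf-2 (0.315, 0.211 and 0.137) and against N2 (0.33, 0.368 and 0.501), and the pairing comes from these data, not the labels. Blocked values stand beside those results where the call changes.

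The muscle genes and lists were chosen with earlier results of these data known. Named are 10 preset genes, every gene called in any comparison or with the block, and the 3 highest and 3 lowest of each comparison. Other genes shown were added after their values were seen. Libraries held 19394046 to 41009125 counts. Precision is limited by having 3 libraries per genotype, and the part of depth in it was not tested.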

Additional observations from a re-analysis of the deposited data

How the results depend on the processing

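No muscle gene passed edgeR's test in any of the 6 comparisons, and that count moved under some settings. DESeq2 called 1 gene in daf-2 over N2 (tni-3, lower), 2 in the double mutant over daf-2, 3 over pfd-6 and 1 in the interaction. In the same direction it called 0.782%, 4.85%, 5.28% and 2.05% of all genes. The replicate block called 4 over daf-2, 7 over pfd-6 (where 6.08% of all genes were called higher) and 1 over N2, all higher, and changed no other call. A length offset called 1 over pfd-6 (myo-3, higher), against 7.63% of all genes in either direction (440 of 15090 higher, 712 lower). Offset and block together called tni-3 lower in daf-2 over N2, where 87 of 15090 genes were called lower. In the double mutant deb-1 was called higher over daf-2, where 649 of all genes were. Over N2 myo-3 was called higher, where 784 of all genes were. Over pfd-6 this fit called 6 genes, 5 higher and 1 lower, where 878 of all genes were called higher and 1616 lower. The lower gene was ttn-1, which reversed to -0.90 (adjusted p = 0.0265) from 0.09. In either direction, 1.73% of all genes were called in daf-2 over N2. In the double mutant 7.34% were called over daf-2, 16.5% over pfd-6 and 9.13% over N2. The offset alone moved the median of all genes from -0.07 to -0.20 in the double mutant over daf-2. It moved from -0.02 to -0.24 over pfd-6, from -0.07 to -0.23 over N2 and from -0.12 to -0.28 for the interaction. In the remaining fits each muscle gene called was higher, and the shares of all genes count both directions. With replicate 3 of both single mutants left out, 1 gene was called over pfd-6 (tnc-2) and 1 over N2 (mlc-1), against 3.86% and 8.18% of all genes. With the compared groups alone 2 were called over N2 (tni-1 and mlc-1), against 10.4%. Leaving out single libraries gave 0 to 1 over pfd-6 (unc-52 without pfd-6 replicate 2, tnc-2 without pfd-6 replicate 3, against 5.18% and 2.37% of all genes) and 0 elsewhere. In the double mutant over daf-2, the share of all genes called then ran from 0% (without daf-2 replicate 1 or 3) to 4.65% (without pfd-6 replicate 3). The cause of these moves was not tested.

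Leaving out 1 library, the median ran from -0.74 to -0.33 in daf-2 over N2, from -0.53 to -0.21 in pfd-6 over N2, and in the double mutant from 0.57 to 1.15 over daf-2, from 0.45 to 1.00 over pfd-6 and from 0.06 to 0.62 over N2. For the interaction it ran from 1.04 to 1.52. For pfd-6 against N2 (0.345, 0.034 and 0) and the double mutant against pfd-6 (0.299, 0.049 and 0.019) the replicate numbers did not pair the samples, and 3 of 6 samples correlated best with their own number. The interaction could not be fitted with the compared groups alone.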
